A study of Mus musculus with 12 samples.

Results

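The genes Pltp, Abca1, Abcg1, Apoe, Vldlr, Lrp1, Lpl, Mylip and Nr1h2 were examined in neural precursor cells exposed to hydrogen peroxide. They were chosen by name for their roles in lipid efflux and lipoprotein uptake, with earlier results of these data known. All 9 of 9 were found among the 15478 genes that the authors tested. The cells were primary cultures of neural precursors, dividing cells able to form neurons and glia, from adult female C57BL/6 mice that were 5 to 12 weeks old. The cells received 100 µM hydrogen peroxide for 1 h, the same dose for 8 h, or phosphate-buffered saline as a sham. Each group had 4 biological replicates from the same 4 animals, 12 samples in all, so that samples were paired by animal. Whether the authors' tests used this pairing is not stated, and the errors and p-values below may ignore it. Poly-A RNA was sequenced with a stranded kit. Outlier samples were removed by the authors before testing. Neither which these were nor when the sham cells were collected is stated in the labels or headers, so a test rests on at most 4 samples a group. All groups were from females of 1 strain.

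Cells rid themselves of cholesterol chiefly through transporters of the ATP-binding cassette family, which pass it to apolipoproteins outside the cell. Brain lipoproteins are built around apolipoprotein E, made mostly by glia, and are taken up by receptors of the lipoprotein receptor family. The liver X receptors, nuclear receptors that pair with retinoid X receptors and respond to oxidised cholesterol, induce many genes of efflux together with Mylip, whose product marks lipoprotein receptors for degradation. Cholesterol synthesis is driven by another factor, SREBP2, when sterols run low.

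The files hold the authors' comparisons and no value of any single sample, so each gene is described by its mean level over all samples and by 3 comparisons. The depth of each sample is unknown. A log2 fold change below is followed by an implied standard error after the sign ±, computed here from the authors' likelihood ratio. Genes called changed had an adjusted p below 0.05 in the authors' edgeR likelihood ratio test. The comparisons of 1 h and of 8 h with control share their control samples, so their values are given side by side and not correlated. In bulk RNA, fewer cells of a type and less RNA per cell cannot be told apart.

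Markers fixed for the labelled cell type were present. All 10 of 10 markers of neural stem and progenitor cells were in the authors' deposited table, with a median of 8.00 log2 CPM (a library-scaled read count) and a highest level of 11.97 for Vim. Markers of the oligodendrocyte lineage were as abundant, with 8 of 8 found and a median of 8.18 log2 CPM in the authors' deposited table, and 6 of 6 astrocyte markers were found at a median of 6.28. Neuronal markers had a median of 4.79 log2 CPM in the authors' deposited table. Of 15 markers of microglia and macrophages, cells that also make apolipoprotein E, 4 were found, with Cx3cr1, Aif1 and Tmem119 among those not found, at levels between -0.76 and 3.81 log2 CPM in the authors' deposited table. At 8 h, 7 of 8 oligodendrocyte markers and 5 of 6 neuronal markers were lower than in control, with list medians of -0.78 and -1.19 in the authors' deposited table. Of the 6 astrocyte markers in the authors' deposited table, 4 were lower and 1 was higher at 8 h. Of the 4 microglial markers, 2 were higher and 0 lower at 1 h and again at 8 h in the authors' deposited table. The part of these shifts in the results for lipid genes was not tested.

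Levels differed widely among the 9 genes. Levels per length are given as log2 CPM per kilobase of summed exons, from the authors' mean and exon length, and have no error because single samples are lacking. Apoe, the main brain apolipoprotein, stood highest at 6.93. Lrp1, a large endocytic receptor for apolipoprotein E and many other ligands, followed at 4.53. Nr1h2, which encodes the liver X receptor beta, stood at 4.38 and Vldlr, a receptor for apolipoprotein E and reelin, at 4.22. Abca1, which loads cholesterol and phospholipid onto apolipoproteins, stood at 3.76 and Pltp, a phospholipid transfer protein of lipoproteins, at 3.16. Lpl, the lipase that frees fatty acids from lipoprotein triglyceride, stood at 0.57. Mylip and Abcg1, a transporter that passes cholesterol to lipidated particles, were lowest, at -0.41 and -1.83. Whether neighbours in this order differ could not be tested.

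The genes lie apart in the genome. In build GRCm38 they span chr7:19696109-19699188 for Apoe, chr7:44549616-44553951 for Nr1h2, chr10:127538161-127621148 for Lrp1, chr19:27216484-27254231 for Vldlr and chr4:53030787-53159895 for Abca1. Pltp lies at chr2:164839518-164857711, Lpl at chr8:68880491-68907448, Mylip at chr13:45389742-45412022 and Abcg1 at chr17:31057675-31117988. All are protein-coding, with Vldlr, Lpl, Mylip and Abcg1 on the plus strand and the others on the minus strand.

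Upstream windows from RefSeq (build GRCm38.p6) were read for 7 of the 9 genes. Those of Pltp, Abca1 and Mylip are shown because Pltp had the largest rise, and because Abca1 and Mylip, both known targets of liver X receptors, moved in opposite directions at 8 h. Each window is the 250 bases before the start, 5′ to 3′ on the strand of the gene. Pltp is at chr2:164857709-164857958 (minus strand), Abca1 at chr4:53159896-53160145 (minus strand) and Mylip at chr13:45389492-45389741 (plus strand). Capitals mark a TATA box in Abca1 and Mylip, and, upstream of it in Abca1, a sequence that resembles the element bound by liver X receptors.
Pltp: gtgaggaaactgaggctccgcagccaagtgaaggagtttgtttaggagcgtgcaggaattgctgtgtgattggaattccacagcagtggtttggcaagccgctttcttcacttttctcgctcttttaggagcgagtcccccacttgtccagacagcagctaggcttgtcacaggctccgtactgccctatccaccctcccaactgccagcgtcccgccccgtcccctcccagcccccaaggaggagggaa
Abca1: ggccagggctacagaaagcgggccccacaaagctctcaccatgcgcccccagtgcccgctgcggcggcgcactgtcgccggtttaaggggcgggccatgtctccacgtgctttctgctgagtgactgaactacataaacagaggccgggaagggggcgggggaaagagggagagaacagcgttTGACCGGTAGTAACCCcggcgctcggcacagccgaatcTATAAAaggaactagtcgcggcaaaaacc
Mylip: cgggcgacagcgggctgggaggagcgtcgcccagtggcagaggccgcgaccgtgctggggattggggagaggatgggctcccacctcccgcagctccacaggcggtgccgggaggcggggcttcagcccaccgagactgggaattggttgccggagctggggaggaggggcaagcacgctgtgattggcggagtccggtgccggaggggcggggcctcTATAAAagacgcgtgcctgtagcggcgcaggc

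Liver X receptors bind a direct repeat with a spacer, searched here on both strands as a pair of AGGTCA copies in the same direction with 4 bases of any kind (NNNN) between them. No window of these genes held it with up to 2 mismatches, against 2.57% of 32851 such windows of all RefSeq genes. With up to 3 mismatches, allowed after the stricter search had found none, 1 of 10 windows of these genes held it, that of Abca1, against 18.5% of all windows. The Abca1 match reads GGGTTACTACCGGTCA on the strand opposite to the gene, has 3 mismatches, and lies 67 to 52 bases before the start. A TATA box, TATAAA, lay 29 to 24 bases before the start of Abca1 and 32 to 27 before that of Mylip. It was also in 1 of the Apoe windows, on both strands, 100 to 91 bases before the start, and was in 12.4% of all windows on either strand. A GC box, GGGCGG, was in windows of Abca1, Lrp1, Mylip, Pltp and Vldlr and in 32.7% of all windows. Of the 7 genes with a window, Abca1 alone held the E-box CACGTG, which was in 6.02% of all windows. The windows of Pltp, Abca1 and Mylip hold 57.6%, 61.6% and 71.2% G and C, against a median of 52.4% over all windows. A match is a run of letters and not a measured binding site.

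At 8 h of peroxide all 9 genes differed from control, 6 higher and 3 lower. Of all genes in the authors' deposited table, 55.7% were called at 8 h, 27.4% higher and 28.2% lower. A called change of at least 2-fold was found for Pltp alone of the 9, and for 8.44% of all genes. The median log2 fold change of the 9 genes was 0.25, against 0.01 over all genes, and the median size of change was 0.42 against 0.21. The rises covered Pltp, Abca1, Vldlr, Lrp1, Apoe and Nr1h2, which include genes of efflux, of uptake and of their regulation. The falls covered Mylip, Abcg1 and Lpl.

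Pltp rose most. The authors' deposited table gives a log2 fold change of 2.28 ± 0.07 at 8 h (adjusted p = 4.5e-221), a 4.86-fold rise with a 95% interval from 4.41 to 5.35. Its rank from the top was 46 among 15478 genes. At 1 h it was not called, with -0.07 ± 0.09 in the authors' deposited table (adjusted p = 0.578). Against 1 h, the value at 8 h was 5.10-fold higher in the authors' deposited table, at rank 15 from the top. Pltp overlaps Ctsa, a lysosomal protease gene on the opposite strand, and no label or header states whether counting used the strand. The log2 fold change of Ctsa in the authors' deposited table was -0.05 at 1 h and -0.11 at 8 h.

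Abca1, the transporter that starts lipoprotein lipidation, rose at both times. Its log2 fold change in the authors' deposited table was 0.25 ± 0.09 at 1 h (adjusted p = 0.0219) and 0.54 ± 0.09 at 8 h (adjusted p = 1.8e-08), a 1.46-fold rise at 8 h. The call at 1 h was lost in the authors' deposited table from voom and limma, where the adjusted p was 0.0503. The rise from 1 h to 8 h was 0.30 ± 0.09 in the authors' deposited table (adjusted p = 0.00264). The implied standard error of Abca1 at 1 h was 2.44 times the median of 828 genes of like abundance and above 99.9% of theirs. The ratio was 2.50 at 8 h, while for the other genes it lay between 0.90 and 1.37 over the 3 comparisons.

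Abcg1, which passes sterol on to particles that Abca1 has begun, moved the other way at 8 h. At 1 h its log2 fold change was 0.69 ± 0.18 in the authors' deposited table (adjusted p = 7.3e-04), a 1.61-fold rise. At 8 h it was -0.60 ± 0.20 in the authors' deposited table (adjusted p = 0.0066), or 0.659-fold of control. Between 1 h and 8 h it fell by 1.29 on the log2 scale in the authors' deposited table (adjusted p = 3.0e-11). Its mean level, 1.04 log2 CPM, was the lowest of the 9, and the errors were accordingly wide. A ribosomal RNA gene, Gm25447, overlaps Abcg1 on the same strand and was not among the genes tested. Rising at 1 h and falling at 8 h was found for 619 of the genes tested, or 4.0%.

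Apoe, the lipid carrier that Abca1 loads, was called higher by a small amount at both times. The authors' deposited table gives 0.15 ± 0.04 at 1 h (adjusted p = 0.00228) and 0.25 ± 0.04 at 8 h (adjusted p = 3.7e-08), a 1.19-fold rise at 8 h. The value at 1 h turned to -0.0073 (adjusted p = 0.920) when centred on genes of like span, and was then not called. The further rise from 1 h to 8 h was 0.10 ± 0.04 in the authors' deposited table (adjusted p = 0.0359), and was lost at a threshold of 0.01. Apoe begins 2.13 kb beyond the end of Tomm40, a mitochondrial import gene on the same strand, which in the authors' deposited table had log2 fold changes of 0.10 at 1 h and 0.14 at 8 h. Abca1 and Apoe were both among the 1208 genes, 7.8% of those tested, that rose at both times.

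**Figure D1:**
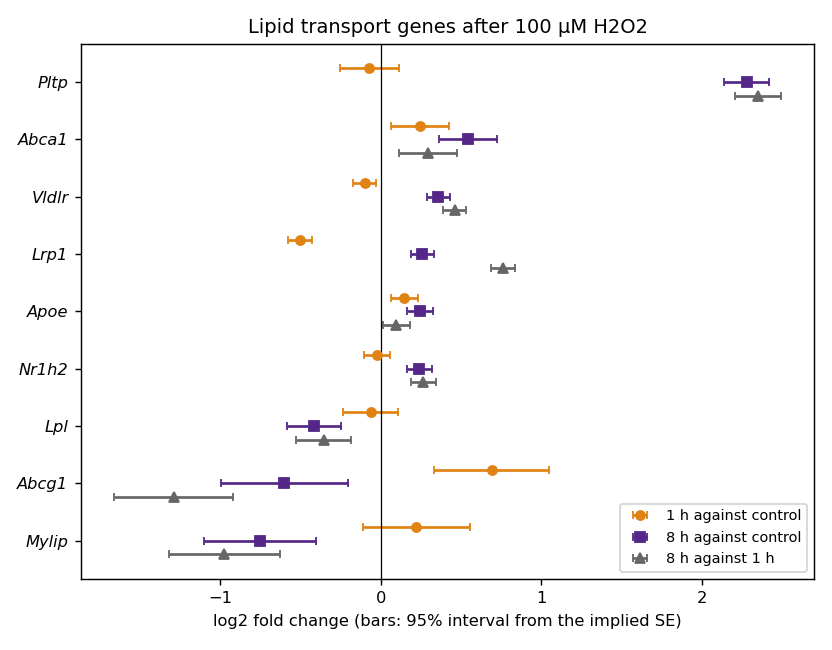
Log2 fold change of the 9 genes in each comparison (horizontal axis, log2 scale), with bars for the 95% interval from the implied standard error and 1 symbol for each comparison. Pltp stands apart at 8 h with 2.28, Lrp1 is lower at 1 h with -0.50 and higher at 8 h with 0.26, and Abcg1 goes from 0.69 to -0.60.

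Of the lipoprotein receptors, Lrp1 fell first and then rose. A log2 fold change of -0.50 ± 0.04 at 1 h stood in the authors' deposited table (adjusted p = 3.0e-37), or 0.706-fold of control. At 8 h it was 0.26 ± 0.04 in the authors' deposited table (adjusted p = 2.2e-11), a 1.20-fold rise. From 1 h to 8 h Lrp1 rose 1.69-fold in the authors' deposited table, with 0.76 ± 0.04 (adjusted p = 1.8e-87). An antisense gene, Gm16217, overlaps Lrp1 and was not among the genes tested.

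Vldlr, which also receives reelin in the developing brain, had the same order of signs at smaller size at 1 h. The authors' deposited table gives -0.10 ± 0.04 at 1 h (adjusted p = 0.0188) and 0.36 ± 0.04 at 8 h (adjusted p = 9.4e-23), a 1.28-fold rise at 8 h. From 1 h to 8 h the change was 0.46 ± 0.04 in the authors' deposited table (adjusted p = 8.7e-36). Falling at 1 h and rising at 8 h was found for 881 genes, 5.69% of those tested.

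Mylip, whose product directs degradation of lipoprotein receptors such as Vldlr, moved opposite to these receptors at 8 h. Its log2 fold change at 8 h was -0.75 ± 0.18 in the authors' deposited table (adjusted p = 7.1e-05), or 0.593-fold of control. At 1 h it was 0.22 ± 0.17 in the authors' deposited table and was not called (adjusted p = 0.30). Between the exposures Mylip fell to 0.509-fold in the authors' deposited table (adjusted p = 1.2e-07). Its mean level of 1.28 log2 CPM was low, so its intervals were wide.

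Lpl, which lies on the uptake side as a lipase, fell at 8 h. The authors' deposited table gives -0.42 ± 0.09 at 8 h (adjusted p = 3.9e-06), or 0.748-fold of control, and -0.06 ± 0.09 at 1 h (adjusted p = 0.591). From 1 h to 8 h the change was -0.35 ± 0.09 in the authors' deposited table (adjusted p = 1.2e-04). Lpl and Mylip were among the 2338 genes, 15.1% of those tested, that were lower at 8 h with no call at 1 h.

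Nr1h2, the receptor whose targets include Abca1, Abcg1, Apoe, Pltp, Lpl and Mylip, rose at 8 h by a small amount. In the authors' deposited table its log2 fold change was -0.02 ± 0.04 at 1 h (adjusted p = 0.684) and 0.24 ± 0.04 at 8 h (adjusted p = 7.7e-09), a 1.18-fold rise. From 1 h to 8 h it was 0.26 ± 0.04 in the authors' deposited table (adjusted p = 3.2e-10). Its partner in the family, Nr1h3, liver X receptor alpha, was named after its values were seen. Nr1h3 had a mean of 1.44 log2 CPM and no call. Its log2 fold change in the authors' deposited table was -0.22 ± 0.18 at 1 h (adjusted p = 0.346) and -0.07 ± 0.17 at 8 h (adjusted p = 0.733). Of the 6 targets among these 9 genes, 3 rose and 3 fell at 8 h.

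At 1 h, 3 of the 9 genes were higher, 2 were lower and 4 were not called. Of all genes in the authors' deposited table, 42.7% were called at 1 h, 20.5% higher and 22.2% lower, so 5 of 9 is near that background. A change of at least 2-fold was called for 0 of the 9 and for 4.17% of all genes at 1 h. The median of the 9 genes was -0.02, against 0.01 over all genes. Their median size of change was 0.15, against 0.16 over all genes. For 8 h against 1 h, all 9 were called, 6 higher and 3 lower, with a median of 0.26, against -0.01 over all genes. Of all genes in the authors' deposited table, 62.7% were called in that comparison, 30.3% higher and 32.4% lower.

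**Figure D2:**
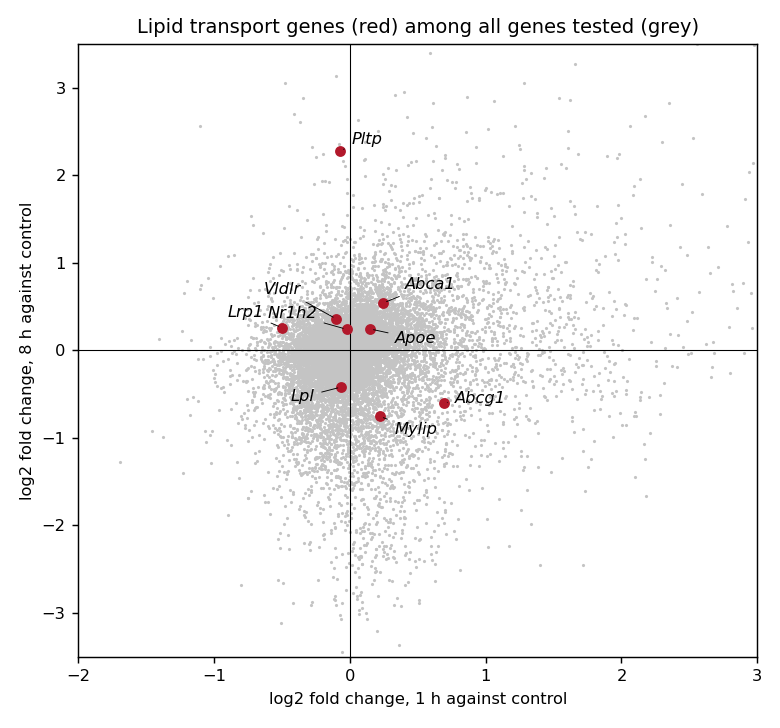
Log2 fold change at 1 h (horizontal) against that at 8 h (vertical) for 15451 tested genes as grey points, both relative to the same controls, with the 9 genes marked and 27 genes outside the range not drawn. Pltp lies at 2.28 on the vertical axis and -0.07 on the horizontal axis, and the other 8 genes lie between -0.75 and 0.54 at 8 h.

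Log2 fold changes at 1 h varied with gene span, the length of the gene on the genome. The median log2 fold change at 1 h fell from 0.15 among the shortest eighth of 15463 genes with a known span to -0.24 among the longest, which span 107 to 2961 kb. At 8 h these medians were 0.06 and -0.12. Lrp1 spans 83.0 kb and belongs to the eighth with a median of -0.11 at 1 h, and its own value of -0.50 in the authors' deposited table lay below that. Abca1 spans 129 kb, in the longest eighth, and rose at 1 h while that eighth had a median of -0.24. Abcg1, at 60.3 kb, belongs to the same eighth as Lrp1 and rose. Apoe spans 3.08 kb, in the shortest eighth, and its value of 0.15 in the authors' deposited table stood beside an eighth median of 0.15. Centred on its eighth, Vldlr was at -0.07 at 1 h and no longer called, as was Apoe. The part of gene span in these results was not tested further.

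**Figure D3:**
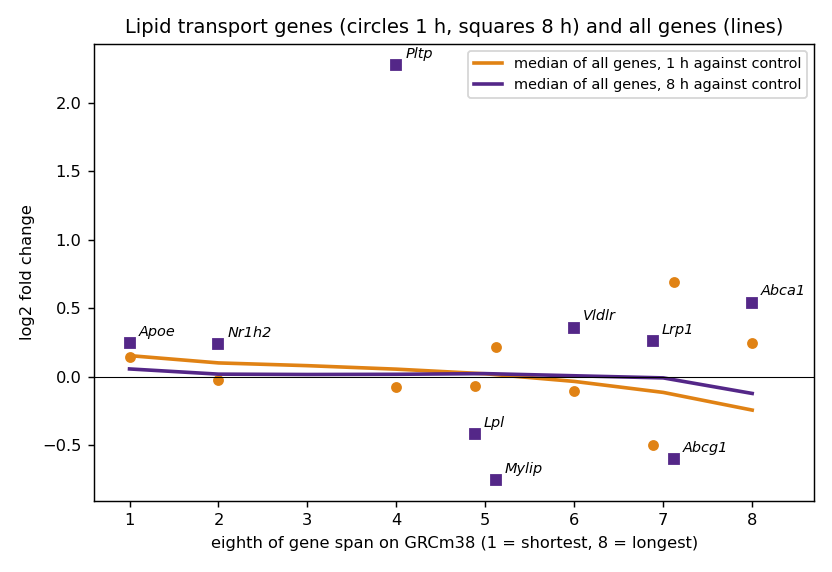
Median log2 fold change of genes in each eighth of gene span, from shortest to longest, for 1 h and 8 h against control, with the 9 genes as circles (1 h) and squares (8 h) at their own eighth and value. At 1 h the medians fall from 0.15 to -0.24, and Lrp1 lies below and Abca1 and Abcg1 above the median of their eighth.

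The wider pathway was described by 7 lists, of 129 entries, of which 113 were found by symbol and 1 by Ensembl identifier. Their counts are to be read against all genes tested, of which 20.5% were higher and 22.2% lower at 1 h, and 27.4% higher and 28.2% lower at 8 h. Among known targets of liver X receptors, 15 of 16 were found, and at 8 h there were 4 higher and 9 lower in the authors' deposited table, with a median of -0.24. Without the genes described above, 1 of 9 was higher and 6 were lower at 8 h in the authors' deposited table. Fasn, the fatty acid synthase, fell by 0.69 on the log2 scale at 8 h in the authors' deposited table (adjusted p = 1.8e-74). Smpdl3a, a phosphodiesterase, fell by 0.56 and Scd1, a fatty acid desaturase, by 0.24 at 8 h in the authors' deposited table. Arl4c, a small GTPase, rose by 0.39 ± 0.04 at 8 h in the authors' deposited table (adjusted p = 2.3e-21). At 1 h the targets had 5 higher and 4 lower in the authors' deposited table, with a median of 0.03, and 3 higher and 4 lower when centred by span. Without the genes described above, 2 of 9 were higher and 4 lower at 1 h in the authors' deposited table, with a median of -0.15.

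Receptors and coregulators gave another picture. At 1 h, 5 of 12 genes were lower and 1 higher in the authors' deposited table, with a median of -0.23, while at 8 h 6 were higher and 2 lower, with a median of 0.07. Ncor1, a corepressor, and the coactivators Ncoa1 and Ncoa2 fell at 1 h by 0.44, 0.39 and 0.37 in the authors' deposited table. Ppard, a related nuclear receptor, rose by 0.43 ± 0.05 at 8 h in the authors' deposited table (adjusted p = 1.0e-14).

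Lipid transporters of the ATP-binding cassette family moved in both directions. At 8 h 3 of 14 were higher and 6 lower in the authors' deposited table, with a median of -0.21, beside 27.4% higher and 28.2% lower over all genes. Abca7, a phospholipid transporter related to Abca1, had -0.92 ± 0.08 at 8 h (adjusted p = 2.1e-32) in the authors' deposited table, and Abca2, abundant in oligodendrocytes, -0.47 ± 0.04. Abca8b rose by 0.47 ± 0.10 at 8 h in the authors' deposited table. Of the apolipoproteins, lipases and remodelling factors, 11 of 19 were found, with 4 higher and 3 lower at 8 h in the authors' deposited table, near the shares over all genes. Among them the endothelial lipase gene Lipg fell by 0.76 at 8 h in the authors' deposited table (adjusted p = 3.9e-24). Lcat, the enzyme that esterifies cholesterol on lipoproteins, rose by 0.86 ± 0.14 at 1 h in the authors' deposited table (adjusted p = 1.5e-08). At 8 h Lcat was not called, with 0.01 ± 0.15 (adjusted p = 0.961), and its mean level was 2.40 log2 CPM. Scarb1, a receptor for high-density lipoprotein, fell by 0.20 at 1 h and rose by 0.20 at 8 h in the authors' deposited table.

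In the lipoprotein receptor family with its adaptors, all 24 were found. At 1 h 10 were lower and 2 higher in the authors' deposited table, and 8 lower and 4 higher once each gene was centred on the median of its eighth of gene span. At 8 h 11 were lower and 10 higher in the authors' deposited table. Dab1, the adaptor that carries the reelin signal from Vldlr, had -1.48 ± 0.07 at 8 h (adjusted p = 2.1e-102) in the authors' deposited table. Sorl1, a sorting receptor, rose by 1.11 ± 0.09 at 8 h (adjusted p = 2.4e-34) and Lrp3 fell by 0.68 in the authors' deposited table. Reln, the ligand of Vldlr, fell by 0.49 ± 0.04 at 1 h (adjusted p = 1.6e-30) in the authors' deposited table.

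Most genes of cholesterol synthesis under SREBP2 fell. At 1 h 15 of 19 were lower and 0 higher, with a median of -0.22, and at 8 h 16 were lower and 2 higher, with a median of -0.32, in the authors' deposited table. Hmgcs1, an early enzyme of the pathway, was at -0.35 ± 0.05 at 1 h (adjusted p = 2.7e-13) in the authors' deposited table, and Lss, which closes the sterol ring, at -0.51 ± 0.05 at 8 h (adjusted p = 2.2e-19). Scap, the sterol sensor that escorts SREBP2, rose by 0.56 ± 0.04 at 8 h (adjusted p = 4.1e-54) in the authors' deposited table. Among genes of intracellular cholesterol transfer and esterification, 7 were higher and 7 lower of 19 at 8 h in the authors' deposited table, not far from the 27.4% and 28.2% over all genes. Nceh1, a cholesterol ester hydrolase, rose by 0.65 ± 0.04 (adjusted p = 4.8e-50) and Cyp46a1, the neuronal enzyme that turns cholesterol into an exportable oxysterol, fell by 0.80 at 8 h in the authors' deposited table. Npc1, which exports cholesterol from lysosomes, fell by 0.34 ± 0.04 at 1 h (adjusted p = 7.3e-18) in the authors' deposited table.

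**Figure D4:**
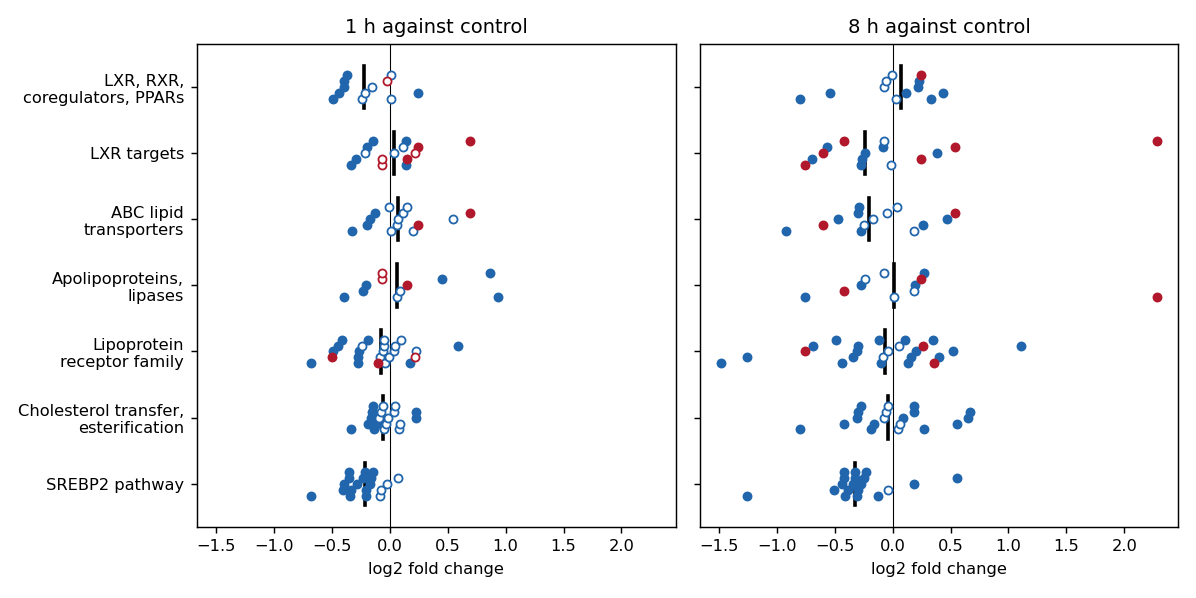
Log2 fold change of each found gene in the 7 lists at 1 h and at 8 h against control, with a thick line at the list median, the 9 genes in red, and filled points for genes called changed. The medians of the SREBP2 list lie below 0 at both times, at -0.22 and -0.32, while the list of liver X receptor targets spreads to both sides.

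The authors' deposited gene set table holds Reactome sets of the same biology. There, the set for signalling by the liver X receptors, of 10 genes, was lower at 1 h, with an adjusted p of 0.0169 in the authors' deposited table. In the comparison of 8 h with control its adjusted p was 0.376 in the authors' deposited table. From 1 h to 8 h it was higher, with an adjusted p of 0.0132 in the authors' deposited table. The set for plasma lipoprotein clearance, of 22 genes, had an adjusted p of 0.326 at 1 h, of 0.481 at 8 h and of 0.151 from 1 h to 8 h in the authors' deposited table. The genes within these sets are not listed in that table.

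Genes most like those called at both times were sought among 10045 or 10046 genes with a mean of at least 3 log2 CPM, by the Euclidean distance of the log2 fold changes at 1 h and 8 h. Nearest to Abca1 were Mettl21a and Ypel3, at distances of 0.011 and 0.016, with 57 genes within 0.1. Nearest to Lrp1 were Cep290 and Sipa1l3, at 0.010 and 0.011, with 33 genes within 0.1. Apoe had 440 genes within 0.1, Poll and Ndufaf3 being nearest, and Vldlr had 207, with Slc12a4 and Spryd3 nearest. Abcg1 had 2 within 0.1, Pkdcc and Arrdc4. Its own mean of 1.04 log2 CPM lies below the limit of 3, so genes of its own level were not searched. Its count is therefore not comparable with those of the other genes.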

How the data were processed

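Poly-A RNA of 12 samples in 3 groups was sequenced. The deposited tables hold 0 columns of single-sample values, so the count test planned first was replaced by the authors' own GLM table, as planned for that case. Per the file headers, the authors tested genes with edgeR (GLM, likelihood ratio test) and again with voom and limma. The deposited fold changes are log2 values, and mean expression is deposited as log2 CPM, averaged over samples. The likelihood ratio is deposited as a test statistic, a score, and the p-value columns hold the authors' p-values and their Benjamini-Hochberg adjusted form over all genes. The deposited tables also hold other columns, such as exon length and numbers of genes per set. The genome build was GRCm38, per the submitters' processing notes. The aligner, annotation release, strand setting, design formula and depth per sample are stated in none of the sources used here.

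For the implied standard error, the size of the log2 fold change was divided by the likelihood ratio's square root, and intervals are 95% normal ones. The adjusted p recomputed over 15478 genes differed by at most 1.3e-15. The fold change of 8 h against 1 h equals the difference of the other comparisons. Gene positions came from the GENCODE annotation of GRCm38 and upstream windows from RefSeq. The genes and the lists were chosen with earlier results of these data known. The text names all 9 genes, up to 4 further genes of each list and comparison with the smallest adjusted p among those called, and the 2 nearest genes of each gene called at both times; others are said to be chosen after their values were seen. Some of the genes that the rule chooses are given by counts only, and some are not reported here. The test of centred fold changes and the Benjamini-Hochberg adjustment were checked on simulated data drawn with the implied errors. That simulation took the errors as given, so the error formula itself was not tested. Python 3.11.15, pandas 2.3.3 and scipy 1.17.1 were used.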

Additional observations from a re-analysis of the deposited data

Results flagged for a closer look

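All 9 genes differed between the exposure times: the contrast of 8 h with 1 h tests the difference of the comparisons with control, and each passed an adjusted p of 0.05 in the authors' edgeR test, as did 62.7% of all genes. The log2 differences of 8 h minus 1 h in the authors' deposited table were 2.35 for Pltp, 0.76 for Lrp1, 0.46 for Vldlr, 0.30 for Abca1, 0.26 for Nr1h2 and 0.10 for Apoe. They were -0.35 for Lpl, -0.98 for Mylip and -1.29 for Abcg1 in the authors' deposited table. Groups of single samples could not be searched for outlying samples, since no sample has a value of its own.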

How the results depend on the processing

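Of 162 values of the 9 genes recomputed under 6 alternatives, 155 kept their direction and their side of the threshold. The voom and limma table lost Abca1 at 1 h (0.22, adjusted p = 0.0503). At an adjusted p of 0.01 the number of genes called at 1 h fell from 5 to 3, and the number lower at 1 h from 2 to 1: Abca1 and Vldlr were lost at 1 h, and Apoe for 8 h against 1 h. Centring on the median of genes of like span turned Apoe at 1 h to -0.0073 (adjusted p = 0.920), lost Vldlr at 1 h and called Nr1h2 lower at 1 h (-0.13, adjusted p = 0.0122). No call of the 9 genes moved with a mean of at least 1 log2 CPM, with centring on the median of all genes, or with adjustment over all 3 comparisons together. Of 252 list counts, 234 stayed within 1.5 times, and 9 of the 18 that moved did so under centring by span. At 1 h that centring changed the lipid transporters of the ATP-binding cassette family from 2 higher and 4 lower to 4 higher and 2 lower, the apolipoproteins and lipases from 4 and 3 to 2 and 1, and cholesterol transfer from 7 lower to 4; the SREBP2 list stayed at 0 higher and 15 lower. The cause was not tested. No paired analysis was possible because no values of single samples were present; for the same reason leaving out each replicate and the change of normalization were not run. Abcg1 and Mylip, near 1 log2 CPM, had the widest errors.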
